A study of Rattus norvegicus with 20 samples.

Results

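The 10 genes described here are listed duct cell genes: the keratins Krt19, Krt7, Krt8, Krt18 and Krt20, the chloride channel Cftr, the secreted protein Spp1, and the surface and junction proteins Muc1, Epcam and Cldn4. They were taken by name from a list written with earlier results of these data known, and read from the brightest of each gene's probe sets among 14217 genes. All 10 were measured, and each had 1 probe set named to it. The samples were islets of Langerhans isolated from male Wistar rats aged 8 weeks. Islets of 3 groups received an adenovirus carrying Nr4a1, Nr4a3 or green fluorescent protein (GFP) for 18 h, and untreated islets received none. The NR4A proteins Nr4a1 and Nr4a3 are nuclear receptors without a known ligand, which bind DNA and regulate genes, and the GFP virus is the control for transduction. Virus-treated islets were collected 48 h after the virus was added, and untreated islets were cultured for 48 h, all in medium with 10% serum and 8 mM glucose. Each group had 5 arrays. The labels call the replicates biological but do not give the animals behind each sample, so every p-value measures the spread between these samples.

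Islets are clusters of endocrine cells. The pancreatic ducts, which carry the enzymes of the acinar cells to the gut and add bicarbonate and water, are lined by a simple epithelium, and some duct tissue usually stays attached to isolated islets. Keratins assemble in pairs of a type I and a type II chain: Krt8 and Krt7 are type II, and Krt18, Krt19 and Krt20 are type I. Krt8, Krt18 and Epcam are made by many simple epithelia and are not restricted to ducts, Krt19 is the keratin most used to mark pancreatic ducts, and Krt20 marks duct cells in the rat. RNA of whole islets was measured, so fewer cells of a type and less RNA per cell cannot be told apart.

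Each value is the log2 of a probe set intensity that the authors had summarised by robust multi-array average (RMA), and levels of different genes are not set against each other because each probe set has its own brightness. The medians of the arrays were close, at 98.9 to 103 before the log was taken. The Nr4a3 array of replicate 2 stood apart from the others: its mean correlation with them was 0.941, against 0.982 to 0.989 for the other 19 arrays, and its difference between the 3' and 5' control probe sets for beta-actin was 4.62 log2 units, against 1.50 to 2.21. A large difference of this kind is a sign of shortened RNA or incomplete labelling, so results that rest on this array are given with and without it. The same measure for Gapdh differed between groups, from 0.271 to 0.357 in the Nr4a1 arrays and from 0.499 to 0.739 in the GFP arrays. The treatment protocol in the labels names other viruses (beta-galactosidase and Nkx6.1) than the titles and characteristics do, and groups follow the titles. The probe set of Nr4a1 averaged 5.99 ± 0.12 in the arrays labelled Nr4a1 and 6.07 ± 0.09 in the GFP arrays (SD, n = 5 each). The probe set of Nr4a3 averaged 5.82 ± 0.19 in the arrays labelled Nr4a3 and 5.63 ± 0.17 in the GFP arrays, which was not past the threshold (limma, adjusted p = 0.421). Neither probe set therefore checks the labels, and whether they lie within the delivered sequence is unknown here. Nr4a3 rose in the arrays labelled Nr4a1, by 0.44 ± 0.10 log2 units (SE, limma, adjusted p = 0.00562). The 15 measured beta cell genes averaged between 11.01 and 12.01 log2 units on the 20 arrays, with the lowest mean on the Nr4a3 array of replicate 2.

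The promoters of the listed genes are shown because Nr4a1 and Nr4a3 are factors that bind a known DNA motif, and because several of these genes moved together between arrays. RefSeq promoters of the rat assembly GRCr8 matched 7 of the 10 genes (Krt8, Krt18, Krt20, Cftr, Spp1, Muc1 and Epcam). Both strands were searched from 250 bases before to 50 after the gene start for AAAGGTCA, the NBRE bound by a single NR4A receptor, and for TGANTCA, the AP-1 motif. The 250 bases before the start are printed 5′ to 3′ on the gene's strand for 3 genes that the results turn on, with a motif match in capitals. Krt18 lies at chr7:135035918-135036167 on the plus strand, Spp1 at chr14:5619805-5620054 on the minus strand and Epcam at chr6:12649679-12649928 on the minus strand.
Krt18: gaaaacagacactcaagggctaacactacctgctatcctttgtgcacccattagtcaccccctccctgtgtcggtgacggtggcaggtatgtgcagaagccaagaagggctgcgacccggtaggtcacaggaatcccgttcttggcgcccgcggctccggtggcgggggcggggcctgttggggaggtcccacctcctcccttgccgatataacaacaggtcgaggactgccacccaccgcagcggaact
Spp1: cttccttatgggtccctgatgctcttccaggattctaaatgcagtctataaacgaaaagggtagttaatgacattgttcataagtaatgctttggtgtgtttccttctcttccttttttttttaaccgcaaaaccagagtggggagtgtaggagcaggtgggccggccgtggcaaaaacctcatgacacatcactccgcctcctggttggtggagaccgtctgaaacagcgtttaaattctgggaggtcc
Epcam: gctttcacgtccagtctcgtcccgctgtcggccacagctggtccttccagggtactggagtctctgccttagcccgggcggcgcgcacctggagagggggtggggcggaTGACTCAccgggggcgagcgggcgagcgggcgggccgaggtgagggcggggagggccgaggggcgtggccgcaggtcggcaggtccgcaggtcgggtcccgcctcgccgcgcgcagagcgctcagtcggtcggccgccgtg
No match to the NBRE was found in any of the 7 promoters, a motif that 1.43% of 33469 RefSeq promoters hold. The exact HNF1 letters, held by 15 of the 33469 (0.0448%), were not found in them either. Letters this rare would hardly be met in 7 promoters, so their absence says nothing of HNF1 sites. The AP-1 motif, held by 7.33%, was found in Epcam, with its first base at -141, and in Krt8, with its first base at +14 after the start. These letters are a description of this window, and no match says only that they are not in it.

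None of the 10 duct cell genes passed the test in any of the 4 comparisons (limma, adjusted p under 0.05 over 14217 genes). In Nr4a1 against GFP, 0 of 10 genes passed, where 8.71% of all genes did (6.16% rose and 2.55% fell). In Nr4a3 against GFP it was 0 of 10, where 1.93% of all genes passed. In Nr4a1 against Nr4a3 it was 0 of 10, where 0.633% passed, and in GFP against untreated 0 of 10, where 0% passed. At an unadjusted p under 0.05, 1 of the 10 genes (Spp1) was past the threshold in Nr4a1 against GFP, against 19.9% of all genes, and 0 were in each of the other comparisons, against 12.8%, 11.5% and 2.90% of all genes in the same order. Without the Nr4a3 array of replicate 2 the count was 2 in Nr4a1 against GFP (Krt7 and Spp1, against 30.8% of all genes) and 0 in Nr4a3 against GFP (16.2%). It was 1 in Nr4a1 against Nr4a3 (Krt7, against 11.4%) and 1 in GFP against untreated (Krt20, against 6.01%). With 10 genes and these shares, these counts lie near the background.

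The median difference over the 10 genes was 0.05 log2 units in Nr4a1 against GFP (median of all genes -0.0013), with 7 genes above 0 and 3 below. It was -0.06 in Nr4a3 against GFP (all genes 0.0033), with 4 above and 6 below, and 0.02 without the Nr4a3 array of replicate 2. The comparisons of Nr4a1 and of Nr4a3 with GFP share the GFP arrays. Spp1 had the largest difference of the 10 genes, and Krt7 was the only one whose groups did not overlap in any comparison.

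**Figure D1:**
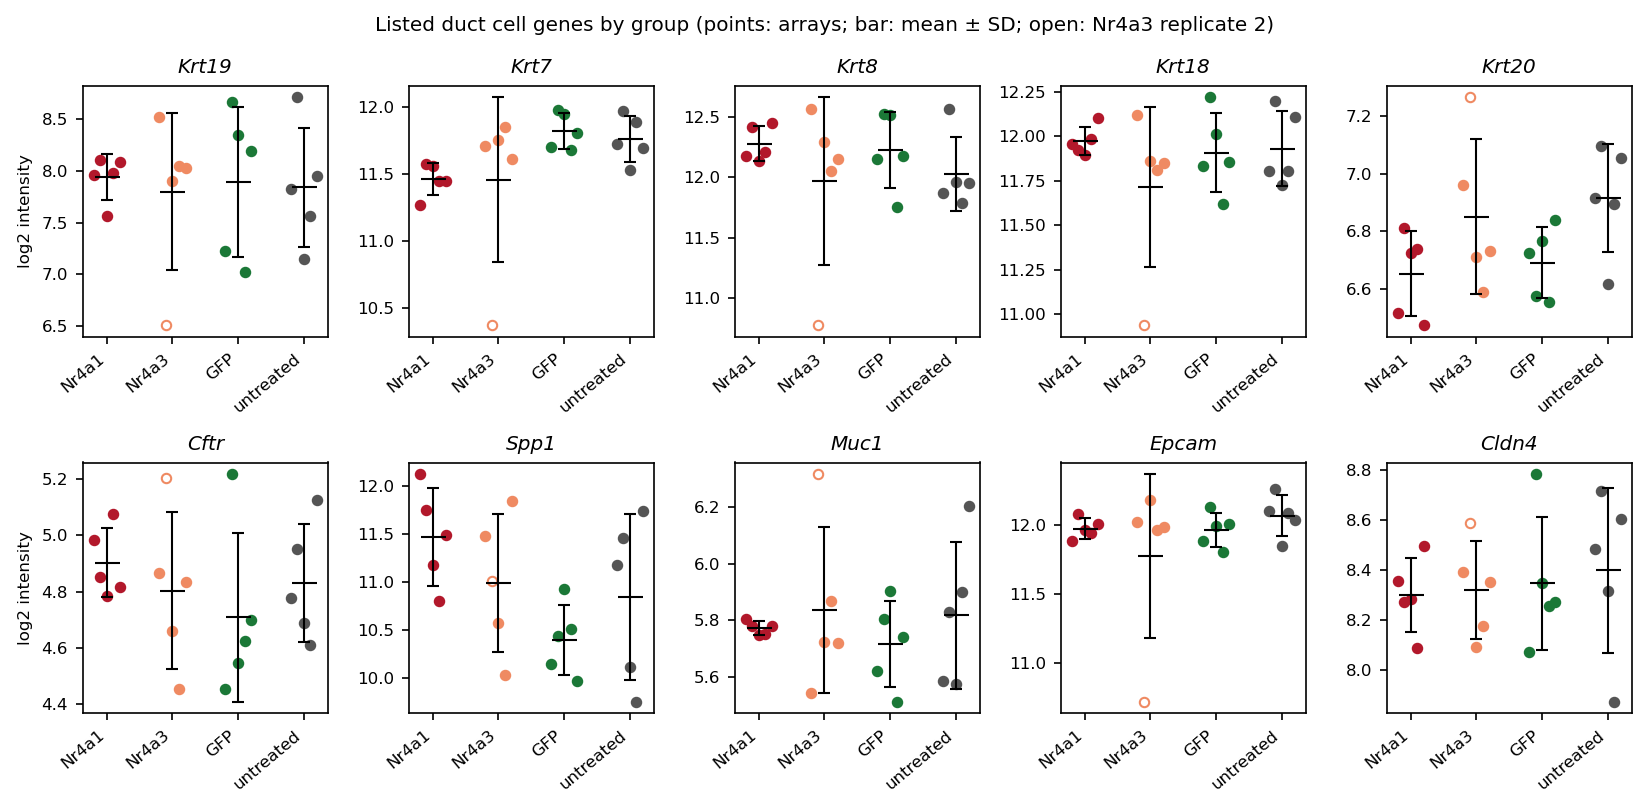
Log2 intensity (y axis, own scale for each gene) of the 10 listed duct cell genes on each array, by group on the x axis; points are arrays, bars are the mean ± SD of 5 arrays, and the open point is the Nr4a3 array of replicate 2. The 5 Nr4a1 arrays sit below the 5 GFP arrays for Krt7, 4 of 5 Nr4a1 arrays sit above all GFP arrays for Spp1, and the open point is the lowest for Krt19, Krt7, Krt8, Krt18 and Epcam.

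Spp1 encodes osteopontin, a secreted phosphoprotein that binds integrins and CD44 and is made by duct cells, but also by macrophages and by activated stromal cells. It had log2 intensities of 12.13, 11.75, 11.18, 10.80 and 11.49 in Nr4a1 arrays, against 10.14, 10.44, 10.92, 10.51 and 9.96 in GFP arrays. The Nr4a3 arrays had 11.48, 11.01, 10.57, 10.03 and 11.84, and the untreated arrays had 11.17, 11.46, 10.11, 9.75 and 11.73. Of the Nr4a1 arrays 4 lay above every GFP array and replicate 4 lay within them, while the Nr4a3 and untreated arrays spread over both groups.

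The mean Spp1 level was 11.47 ± 0.51 in Nr4a1 arrays and 10.39 ± 0.37 in GFP arrays (SD, n = 5 each). The difference was 1.07 ± 0.37 log2 units (SE), or 2.11-fold, with a 95% interval of 0.30 to 1.85 and an adjusted p of 0.0824 (limma), so it was not past the threshold. Fitted with limma to only the 10 arrays of both groups, the same difference had an adjusted p of 0.00823, where 1810 of 14217 genes rose and 1043 fell. With limma's array weights the adjusted p was 0.0189, where 1997 of 14217 genes rose and 1579 fell. Without the Nr4a3 array of replicate 2 it was 0.0534. Leaving out 1 array at a time, the difference stayed between 0.91 and 1.24, with an adjusted p between 0.0534 and 0.230.

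In Nr4a3 arrays Spp1 averaged 10.99 ± 0.72, which was 0.59 ± 0.37 above GFP (95% interval -0.18 to 1.37, adjusted p = 0.538). The direct difference between Nr4a1 and Nr4a3 was 0.48 ± 0.37 (95% interval -0.29 to 1.26, adjusted p = 0.596), so a difference between the receptors was not detectable with 5 arrays each. GFP arrays averaged 0.45 log2 units below the untreated arrays, which averaged 10.84 ± 0.87 (difference -0.45 ± 0.37, adjusted p = 0.9997). The untreated arrays alone spanned a 3.95-fold range of Spp1 on the linear scale, from the lowest to the highest single array, which is not comparable with a difference of group means.

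Markers of other cell types also differed between these groups. Of 22 measured acinar cell genes, 20 rose and 0 fell in Nr4a1 against GFP (6.16% of all genes rose and 2.55% fell), with a median difference of 2.47, and their summed linear intensity ran from 40058 to 94838 in Nr4a1 arrays and from 5026 to 28453 in GFP arrays. Of 18 stellate and fibroblast genes 0 passed the test, with sums of 13917 to 25239 in Nr4a1 arrays and 18838 to 32091 in GFP arrays. Of 17 macrophage and leukocyte genes 0 passed, with sums of 1806 to 4031 in Nr4a1 arrays and 1771 to 3665 in GFP arrays. Of 14 endothelial genes 8 fell and 0 rose, while 0 of 10 genes of other islet hormone cells and 0 of 8 mesothelial genes passed. Without the Nr4a3 array of replicate 2, where 6.86% of all genes fell, 1 gene fell in each of the stellate, hormone cell and mesothelial lists (Pdgfrb, Hhex and Msln). No probe set was at 0, the lowest value in the table being 7.69 on the linear scale. The part of these cells, and of the Gapdh measure above, in the Spp1 values was not tested.

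Krt7 is a type II keratin of ducts and other simple epithelia. Its log2 intensities were 11.27, 11.58, 11.56, 11.45 and 11.45 in Nr4a1 arrays, against 11.70, 11.98, 11.95, 11.68 and 11.81 in GFP arrays. The Nr4a3 arrays had 11.71, 10.38, 11.76, 11.85 and 11.61, and the untreated arrays had 11.72, 11.97, 11.53, 11.89 and 11.70. All 5 Nr4a1 arrays lay below all 5 GFP arrays, an order that 5.63% of all genes showed (16.2% were without overlap in either direction), and the Nr4a3 array of replicate 2 lay far below every other array.

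Krt7 averaged 11.46 ± 0.12 in Nr4a1 arrays and 11.82 ± 0.14 in GFP arrays. The difference was -0.36 ± 0.19 log2 units (95% interval -0.77 to 0.05, adjusted p = 0.327, limma), not past the threshold when all 20 arrays shared 1 estimate of the spread. Without the Nr4a3 array of replicate 2, which takes no part in either mean, Krt7 fell by 0.36 ± 0.09 (95% interval -0.54 to -0.18, adjusted p = 0.0058), and 19.1% of all genes passed in that fit (12.2% rose and 6.86% fell). It also fell in the fit to only the 10 arrays of both groups (adjusted p = 0.00857, limma), where 1810 of 14217 genes rose and 1043 fell. With array weights it fell as well (adjusted p = 0.00207, limma), where 1997 of 14217 genes rose and 1579 fell. Leaving out any other single array did not bring it past the threshold, with adjusted p from 0.317 to 0.547. The decrease corresponds to a level in GFP arrays 1.28-fold that in Nr4a1 arrays.

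In Nr4a3 arrays Krt7 averaged 11.46 ± 0.61 with all 5 arrays and 11.73 ± 0.10 without replicate 2. The difference from GFP was -0.36 ± 0.19 (adjusted p = 0.460) with that array and -0.09 ± 0.09 (95% interval -0.28 to 0.10, adjusted p = 0.707) without it. In the fit without that array 3.71% of all genes passed. The difference between Nr4a1 and Nr4a3 was 0.0027 with that array and -0.27 ± 0.09 (95% interval -0.46 to -0.08, adjusted p = 0.201) without it. GFP and untreated arrays differed by 0.06 ± 0.19 (adjusted p = 0.9997). Of 15 measured beta cell genes, 5 fell and 0 rose in Nr4a1 against GFP, and 8 fell without the Nr4a3 array of replicate 2 (2.55% and 6.86% of all genes fell in these fits), with summed linear intensities of 108159 to 120010 in Nr4a1 arrays and 120028 to 126096 in GFP arrays. Their part, and that of the acinar genes and the Gapdh measure, in the Krt7 values was not tested.

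**Figure D2:**
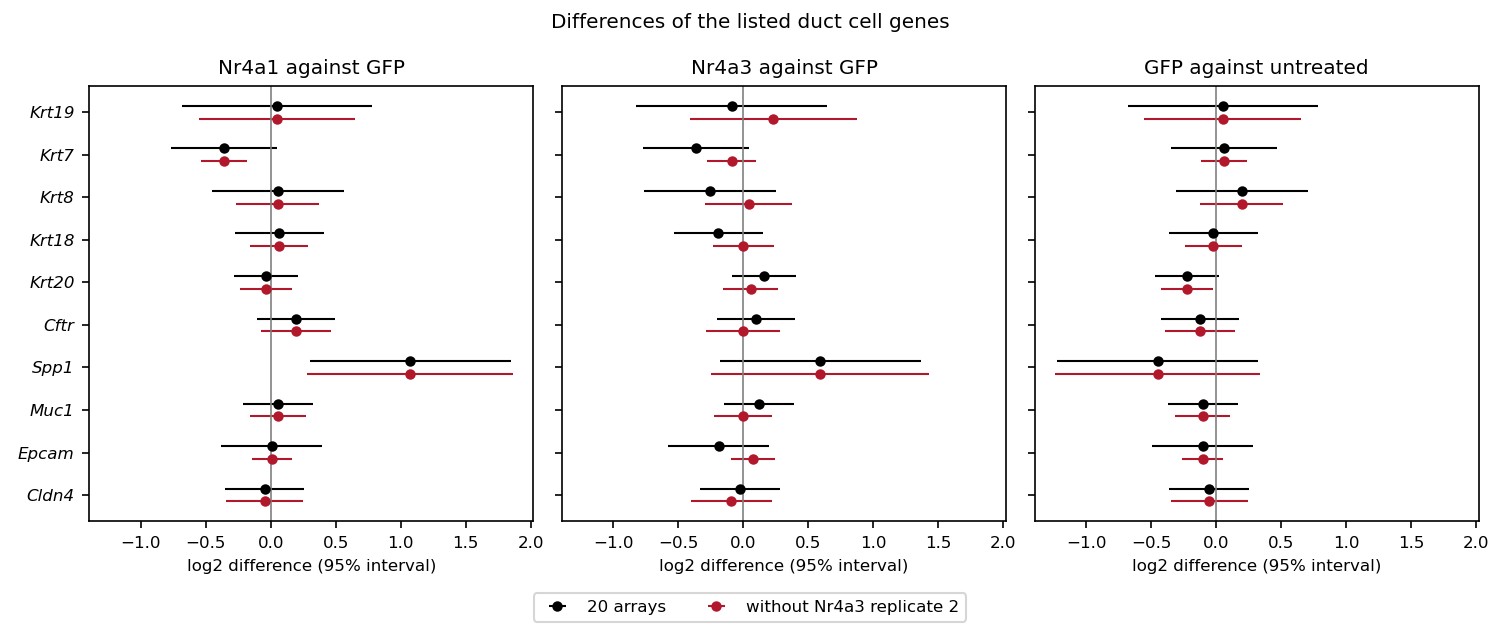
Log2 difference (x axis) of each listed gene (y axis) in Nr4a1 against GFP, Nr4a3 against GFP and GFP against untreated; points are differences of group means and lines are 95% intervals from limma, in black for all 20 arrays and in red without the Nr4a3 array of replicate 2. The intervals of Krt7 in the first panel exclude 0 only in red, and that of Spp1 in both, although Spp1 is not past the adjusted threshold.

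Krt8 and Krt18 form the basic keratin pair of simple epithelia, and Krt19 pairs with the same type II chains in ducts. Krt8 averaged 12.28 ± 0.15 in Nr4a1 arrays, 11.97 ± 0.69 in Nr4a3 arrays, 12.22 ± 0.32 in GFP arrays and 12.03 ± 0.31 in untreated arrays (SD, n = 5 each). Its differences were 0.05 ± 0.24 in Nr4a1 against GFP (95% interval -0.45 to 0.56) and -0.26 ± 0.24 in Nr4a3 against GFP (95% interval -0.76 to 0.25). Without the Nr4a3 array of replicate 2, at 10.78 the lowest of all, the second was 0.04 ± 0.16. Krt18 averaged 11.97 ± 0.08 in Nr4a1 arrays, 11.71 ± 0.45 in Nr4a3 arrays, 11.91 ± 0.22 in GFP arrays and 11.93 ± 0.21 in untreated arrays. The groups overlapped, and the difference was 0.07 ± 0.16 in Nr4a1 against GFP. In Nr4a3 against GFP it was -0.19 ± 0.16 with the array of replicate 2, whose Krt18 level was 10.94, and 0.00057 ± 0.11 without it.

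Krt19 had log2 intensities of 7.96, 8.10, 7.56, 7.98 and 8.09 in Nr4a1 arrays and 8.52, 6.51, 7.90, 8.05 and 8.02 in Nr4a3 arrays. The GFP arrays had 7.23, 8.67, 8.35, 7.02 and 8.19, and the untreated arrays had 7.82, 8.71, 7.15, 7.56 and 7.95. Apart from the Nr4a3 array of replicate 2, at 6.51, the GFP arrays thus covered almost the whole range, with replicates 1 and 4 low and the other 3 high. The Nr4a1 arrays all lay inside the range of the GFP arrays. The difference in Nr4a1 against GFP was 0.05 ± 0.35 (95% interval -0.68 to 0.78, adjusted p = 0.972), and in Nr4a3 against GFP -0.09 ± 0.35, or 0.23 ± 0.31 without the array of replicate 2. The GFP arrays alone spanned a 3.14-fold range on the linear scale, and changes of Krt19 within these intervals were not detectable with 5 arrays a group.

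Krt20 averaged 6.65 ± 0.15 in Nr4a1 arrays, 6.85 ± 0.27 in Nr4a3 arrays, 6.69 ± 0.12 in GFP arrays and 6.92 ± 0.19 in untreated arrays. It lay below the array's median on 6 of the 20 arrays. Its differences were -0.04 ± 0.12 in Nr4a1 against GFP and 0.16 ± 0.12 in Nr4a3 against GFP, with the array of replicate 2 the highest of its group at 7.27. Without that array the second was 0.06 ± 0.10. The difference of GFP from untreated was -0.22 ± 0.12 (unadjusted p = 0.0714, adjusted p = 0.9997, limma), and all other members of the list overlapped between those groups as Krt20 did.

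Cftr, the chloride and bicarbonate channel of the duct cell's luminal membrane, was dim. Its log2 intensities were 4.98, 4.85, 4.79, 5.08 and 4.82 in Nr4a1 arrays, against 4.45, 5.22, 4.54, 4.63 and 4.70 in GFP arrays. The Nr4a3 arrays had 4.87, 5.20, 4.66, 4.45 and 4.83, and the untreated arrays 4.78, 4.95, 4.69, 4.61 and 5.13. The values of all groups overlapped, and all 20 lay below the median of their array. The difference was 0.19 ± 0.14 in Nr4a1 against GFP (95% interval -0.10 to 0.49, adjusted p = 0.534). In Nr4a3 against GFP it was 0.09 ± 0.14, or -0.005 ± 0.14 without the array of replicate 2.

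Muc1, a membrane mucin of luminal surfaces, also lay below the array median on all 20 arrays. It ranged from 5.75 to 5.81 in Nr4a1 arrays, 5.54 to 6.32 in Nr4a3 arrays, 5.51 to 5.90 in GFP arrays and 5.57 to 6.20 in untreated arrays. Its differences from GFP were 0.06 ± 0.13 for Nr4a1 and 0.12 ± 0.13 for Nr4a3. Without the Nr4a3 array of replicate 2, the highest of its group at 6.32, the second was -0.0021 ± 0.11. Dim probe sets understate changes, since background remains in the signal, and detection calls were not used here. Epcam, an epithelial adhesion protein, averaged 11.98 ± 0.07 in Nr4a1 arrays, 11.78 ± 0.60 in Nr4a3 arrays, 11.97 ± 0.12 in GFP arrays and 12.07 ± 0.15 in untreated arrays. Its difference in Nr4a1 against GFP was 0.01 ± 0.19, and 0.01 ± 0.07 without the Nr4a3 array of replicate 2 (95% interval -0.15 to 0.17), the narrowest interval of the 10 genes. In Nr4a3 against GFP it was -0.19 ± 0.19, and 0.07 ± 0.08 without that array. Cldn4, a claudin of tight junctions, averaged 8.30 ± 0.15 in Nr4a1 arrays, 8.32 ± 0.19 in Nr4a3 arrays, 8.35 ± 0.27 in GFP arrays and 8.40 ± 0.33 in untreated arrays. Its differences were -0.05 ± 0.15 and -0.03 ± 0.15 for Nr4a1 and Nr4a3 against GFP. The second was -0.09 ± 0.15 without the Nr4a3 array of replicate 2.

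The genes differed in how much they varied between arrays of the same group. On the 19 arrays without the Nr4a3 array of replicate 2, the SD within groups was 0.67 log2 units for Spp1 and 0.51 for Krt19, above those of 99.1% and 98.3% of all genes. Krt8 had 0.26 and Cldn4 0.24, above 90.6% and 88.4% of genes. Krt7, at 0.14, lay at the median of all genes (0.14), and Epcam, at 0.12, was above 32.0% of them. Over all 20 arrays Spp1 had 0.64 and Krt19 0.61, above 98.8% and 98.5% of genes, while Krt7 had 0.33 and Epcam 0.32, above 87.7% and 86.0%. Spp1 and Krt19 were thus among the most variable genes with or without that array, and the place of Krt7 and Epcam rested on it.

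Deviations from the group means were then compared between genes. These correlations are a description: the points are arrays that share library, scaling and RNA quality. Over all 20 arrays, Krt8 and Krt18 had a Pearson's r of 0.94, Krt19 and Krt18 0.90 and Krt7 and Epcam 0.97. Without the Nr4a3 array of replicate 2 the same pairs had 0.85, 0.87 and 0.78 (n = 19), with Spearman's rho of 0.83, 0.86 and 0.73. When the 2 arrays farthest from the median were also left out, r was 0.76, 0.79 and 0.65. Krt18 and Cldn4 had 0.17 with that array and 0.71 without it, and Cftr and Cldn4 had 0.73 and 0.69. Spp1 and Krt7 had -0.06 and -0.12, and 0.11 and -0.45 when the 2 farthest arrays were also left out. Of the 45 pairs, 29 were above 0 with 20 arrays, with a median of 0.22, and 44 were with 19, with a median of 0.42.

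**Figure D3:**
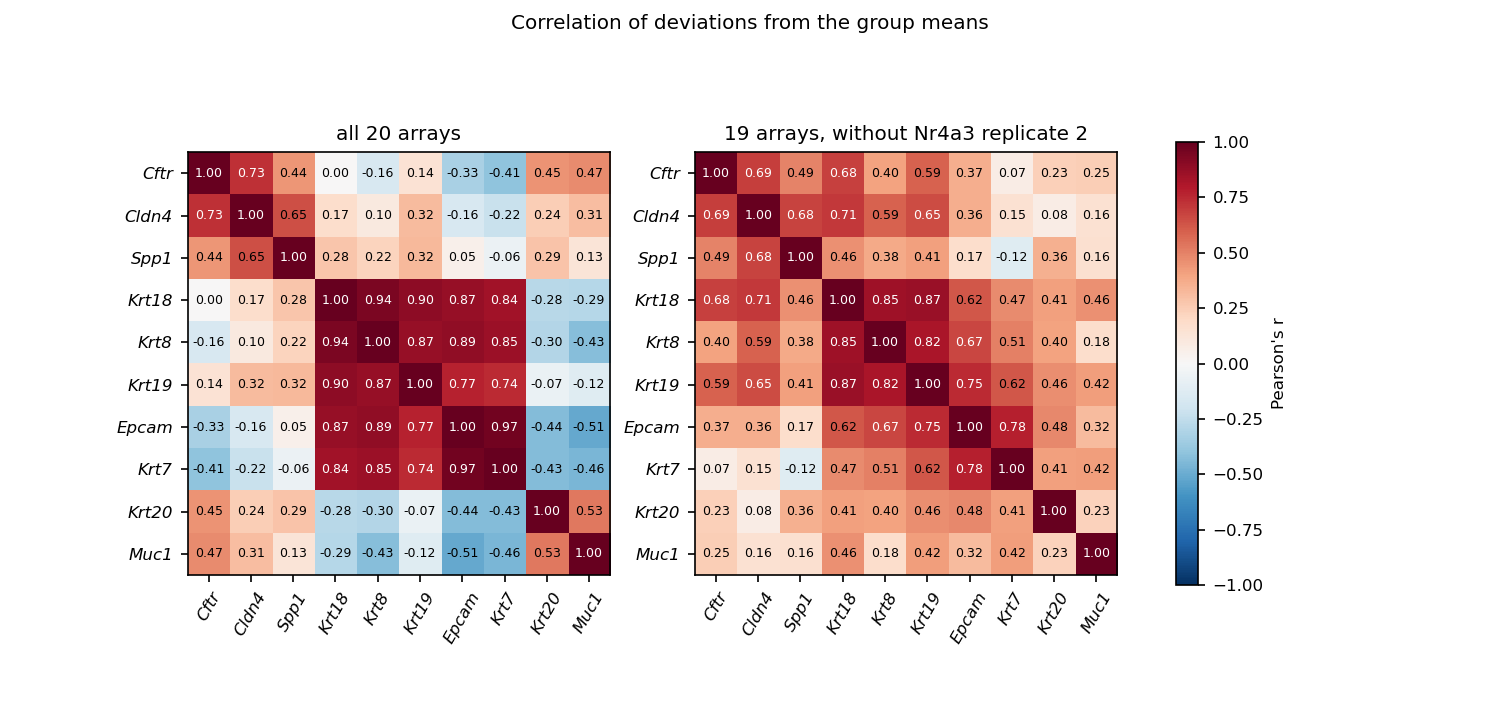
Pearson's r between the deviations from group means of each pair of listed genes, over 20 arrays (left) and over 19 arrays without the Nr4a3 array of replicate 2 (right), with colour from -1 (blue) to 1 (red). Krt18, Krt8 and Krt19 form a block with r of at least 0.82 in both panels, and most negative values on the left, such as Epcam with Muc1, are absent on the right.

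The label of the list was checked against 19 other measured duct identity genes, among them Prom1, Clu, Lcn2 and Sctr. Over 19 arrays, the mean of these genes correlated with Krt18 (r = 0.95), Krt19 (0.87), Cldn4 (0.82), Krt8 (0.77), Cftr (0.77), Spp1 (0.64) and Epcam (0.61), and less with Krt20 (0.42), Muc1 (0.42) and Krt7 (0.40). Over 20 arrays the values were 0.83, 0.87, 0.61, 0.72, 0.47, 0.60 and 0.54 for the first 7 genes in that order, 0.09 for Krt20, 0.07 for Muc1 and 0.48 for Krt7. For the mean of 27 junction and keratin partner genes over 20 arrays, Krt18 had 0.87, Krt8 0.80, Epcam 0.65 and Krt7 0.61. For 19 genes of osteopontin signalling and ductal response over 19 arrays, Krt8 had 0.83, Epcam 0.67 and Krt7 0.42. These were above the duct identity values over the same arrays, and those of the other listed genes with these 2 lists were below. For the junction genes over 19 arrays, only Krt20 (0.44) and Krt7 (0.43) were above. For 14 other keratins, Krt20 (0.77), Muc1 (0.63) and Cftr (0.49) were above over 20 arrays, and Krt20 (0.65) over 19. For 16 duct transport genes, Spp1 (0.66), Cftr (0.48) and Krt20 (0.43) were above over 20 arrays, and Spp1 (0.68) over 19. The check is thus not particular to duct identity.

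Some of the genes also moved with other cell types' genes. Spp1 had r of 0.75 with the mean of the 18 stellate and fibroblast genes over 20 arrays and 0.77 over 19, and 0.70 without the 2 arrays farthest from the median. Cftr had r of -0.69 with the beta cell mean over 20 arrays and -0.60 over 19, where Krt18 had -0.59. Krt7 had 0.81 with the beta cell mean over 20 arrays, but 0.19 over 19. Krt7 and Epcam had r of -0.65 and -0.71 with the mean of the 10 other islet hormone genes over 19 arrays, against 0.26 and 0.28 over 20, and Krt19 had -0.63 and -0.12. Krt8 had r of -0.62 with the macrophage and leukocyte mean over 19 arrays and -0.17 over 20. Over 19 arrays, Krt18, Krt19 and Cldn4 followed the other duct genes most closely, and Krt20, Muc1 and Krt7 least.

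**Figure D4:**
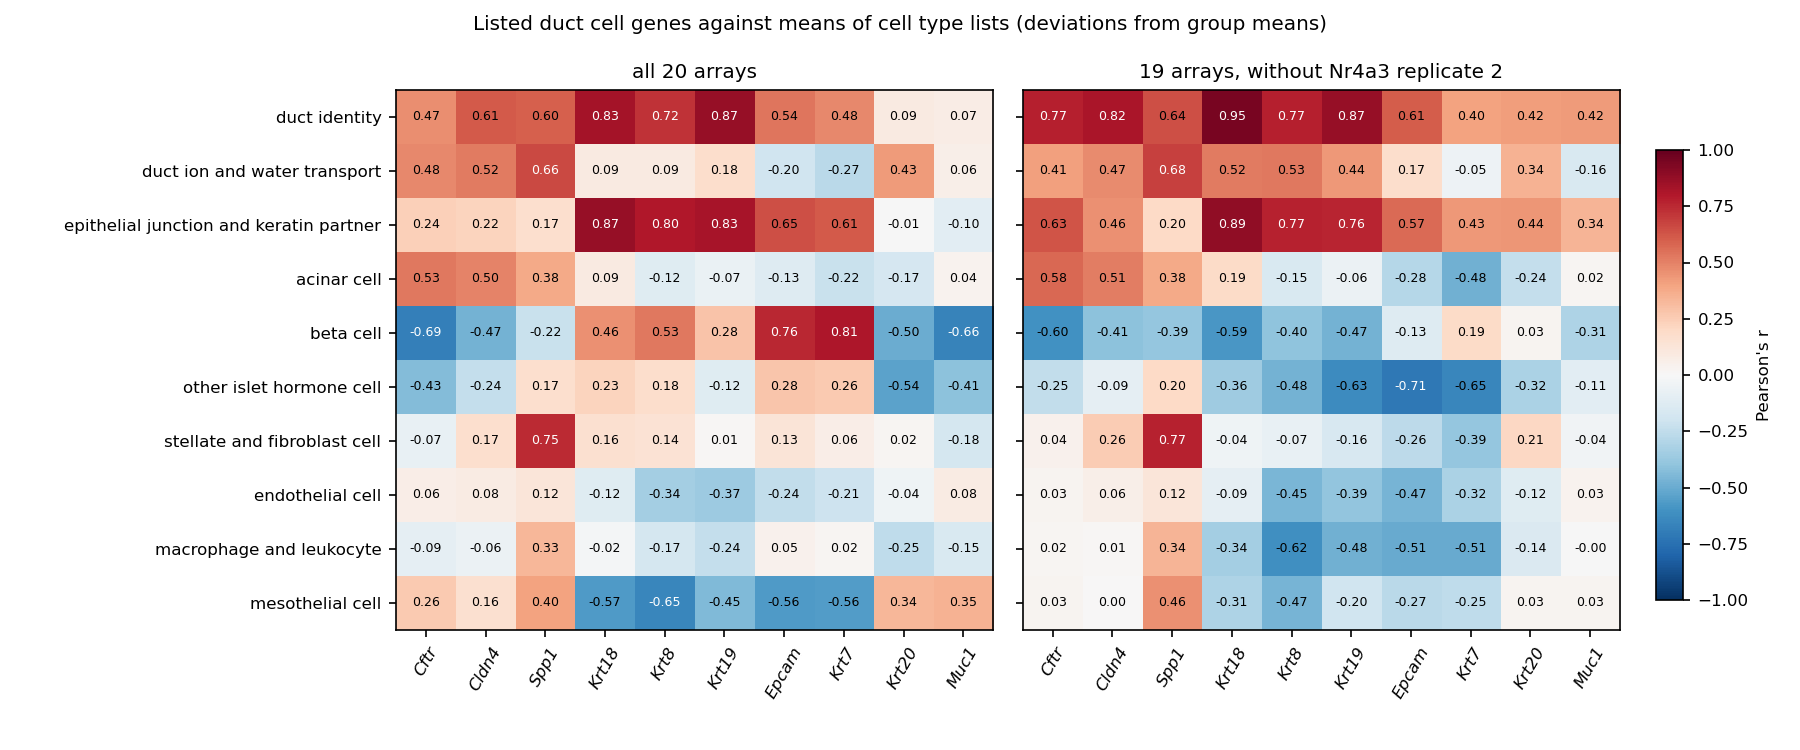
Pearson's r between each listed gene (x axis) and the mean of 10 cell type or function lists (y axis), as deviations from group means, over 20 arrays (left) and 19 arrays without the Nr4a3 array of replicate 2 (right), with colour from -1 (blue) to 1 (red). The duct identity row is above 0 for all 10 genes in both panels, and the stellate and fibroblast row stands out only for Spp1.

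The genes most like them in their deviations over the 20 arrays were found among all others. For the mean of Krt7, Krt8, Krt18 and Krt19 these were Pitpna (r = 0.95), Arpc1b (0.95), Vezt (0.94), Trip10 (0.94) and Sdc4 (0.94), with 0.84 to 0.88 over 19 arrays. Arpc1b is a subunit of the actin-branching Arp2/3 complex, Vezt a protein of adherens junctions and Sdc4 a syndecan. Over 19 arrays the genes most like the mean of these keratins were Slco1a5 (r = 0.94), Tifa (0.94), Ptpn1 (0.93), Twf1 (0.91) and Gpx2 (0.91). Of these, Slco1a5 and Tifa had 0.07 and 0.20 over 20 arrays. For Krt19 alone over 20 arrays they were Ptpn1, Pgd, Gys1, Carhsp1 and Cib1, with r of 0.88 to 0.90. Over 19 arrays the genes most like Krt19 were Slco1a5 (0.91), Gpx2 (0.89), Tifa (0.89), Mab21l3 (0.88) and Slc2a1 (0.87). For Spp1 over 20 arrays they were Mmp14, a membrane-bound matrix protease (r = 0.93), Anxa1 (0.92), B4galt1 (0.92), Pxdn (0.92) and Sfn (0.91). Each had 0.93 over 19 arrays, where Fstl1 was highest (0.95, and 0.62 over 20). For Cftr over 20 arrays they were Gna14 (0.83), Runx1 (0.83), Pof1b (0.82), Adgre1 (0.81) and Amot (0.81), with 0.75 to 0.82 over 19 arrays. Spearman's rho for Adgre1 was lower, at 0.53 over 20 arrays and 0.43 over 19. Over 19 arrays the genes most like Cftr were Fxyd3 (0.87), Anxa3 (0.85), Pof1b (0.82), Sctr (0.82) and Cldn3 (0.81). For Krt7, looked up after its values were seen, they were Vamp8 (0.98), Stard10, Ndufa11, Cldn7 and Bbln (0.97 each). Over 19 arrays the genes most like Krt7 were Iapp (r = 0.90), Vamp8 (0.87), Prom1 (0.86), Il1r1 (0.85) and Mylk2 (0.85). Iapp encodes the beta cell hormone amylin, and Prom1 is one of the duct identity genes. The mean of the 15 beta cell genes had r of 0.19 with Krt7 over 19 arrays.

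Other genes of duct and epithelial biology were read from lists of their own. Of 19 measured duct identity genes, 1 rose and 0 fell in Nr4a1 against GFP (median 0.04), and 0 passed in Nr4a3 against GFP, where 6.16% of all genes rose and 2.55% fell with Nr4a1 and 1.93% passed with Nr4a3. Of 16 genes of duct ion and water transport, 1 rose and 0 fell in each of these comparisons. Of 14 other keratins 0 passed in either, of 19 genes of osteopontin signalling and ductal response 0 passed in either, and of 27 junction and keratin partner genes 1 rose and 3 fell with Nr4a1 and 1 fell with Nr4a3. Without the Nr4a3 array of replicate 2, Anxa3 rose and Hes1 and Elf3 fell as well in the identity list with Nr4a1, Adcy6 rose in the transport list with both receptors, and Ppl fell in the junction list with Nr4a1. In that fit 12.2% of all genes rose and 6.86% fell with Nr4a1, and 3.71% passed with Nr4a3. The part of the acinar and other cell types' genes described above in these counts was not tested.

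Car2, a cytosolic carbonic anhydrase that makes bicarbonate in duct cells and is also found in other cells, was the transport gene that rose. It had 11.59, 11.22, 10.57, 11.13 and 10.85 in Nr4a1 arrays and 10.55, 11.05, 10.54, 9.77 and 10.35 in Nr4a3 arrays. The GFP arrays had 8.81, 8.96, 9.08, 8.90 and 8.57, and the untreated arrays 8.89, 9.09, 8.66, 9.05 and 9.08. Every array with either receptor lay above every GFP and untreated array. In Nr4a1 against GFP, 16.2% of all genes were without overlap in either direction. The differences from GFP were 2.21 ± 0.19 for Nr4a1 (4.62-fold, adjusted p = 3.83e-07) and 1.59 ± 0.19 for Nr4a3 (3.01-fold, adjusted p = 0.000168, limma). Between Nr4a1 and Nr4a3 the difference was 0.62 ± 0.19 (adjusted p = 0.196), and 0.77 ± 0.18 (adjusted p = 0.0453) without the Nr4a3 array of replicate 2, where 0.935% of all genes passed.

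Tff2, a secreted trefoil peptide of mucous epithelia, was the identity gene that rose with Nr4a1. It had 7.98, 6.36, 6.84, 7.24 and 7.67 in Nr4a1 arrays, against 5.50, 5.76, 5.23, 6.27 and 5.40 in GFP arrays, while untreated replicate 5 reached 7.07. The Nr4a1 arrays all lay above the GFP arrays, where 16.2% of all genes were without overlap in either direction. The difference was 1.58 ± 0.34 (SE, limma, adjusted p = 0.00509). In Nr4a3 against GFP the difference was 0.60 ± 0.34 (limma, adjusted p = 0.492), or 0.35 ± 0.32 (adjusted p = 0.683) without replicate 2 of Nr4a3. In the Nr4a1 arrays the mean of the acinar genes was 11.29, 9.98, 10.22, 10.75 and 11.21 in the order above, so both ranked these arrays alike. The untreated array with the high Tff2 value had the highest acinar mean of its group (10.54), as had GFP replicate 4 with 6.27 for Tff2 (9.48). The Nr4a3 arrays had 6.45, 7.25, 5.82, 5.85 and 5.79 for Tff2, and acinar means of 9.75, 9.29, 8.92, 8.92 and 9.01. There Tff2 was highest in replicate 2, the array that stood apart, and the acinar mean in replicate 1. The part of acinar cells in the Tff2 values was not tested.

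Cdh1, the E-cadherin of adherens junctions, fell with both receptors in its brightest probe set. It had 10.50, 10.68, 10.87, 10.61 and 10.79 in Nr4a1 arrays and 10.80, 10.80, 10.88, 10.997 and 10.92 in Nr4a3 arrays, against 11.35, 11.32, 11.29, 11.36 and 11.22 in GFP arrays. The groups did not overlap, and 5.63% of all genes had all 5 Nr4a1 arrays below all 5 GFP arrays. The differences were -0.62 ± 0.07 for Nr4a1 (adjusted p = 1.21e-05) and -0.43 ± 0.07 for Nr4a3 (adjusted p = 0.00264, limma). Averaged over all probe sets of Cdh1 the differences were -0.34 (adjusted p = 0.0135) and -0.12 (adjusted p = 0.590), so the call for Nr4a3 rests on the choice of probe set. Pkp2, a plakophilin of desmosomes, rose with Nr4a1 by 0.60 ± 0.09 (adjusted p = 0.000364), and Evpl and Dsc2, which anchor keratins at cell borders and join cells in desmosomes, fell by 0.44 ± 0.11 (adjusted p = 0.0171) and 0.52 ± 0.15 (adjusted p = 0.0331). The call of Evpl was lost without Nr4a1 replicate 1 or 2 (adjusted p of 0.0638 and 0.0539). That of Dsc2 was lost without any 1 of GFP replicates 1, 2, 3 and 5 or Nr4a1 replicates 1, 3 and 4 (adjusted p from 0.0543 to 0.117), with differences of -0.54 to -0.41 in those fits.

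**Figure D5:**
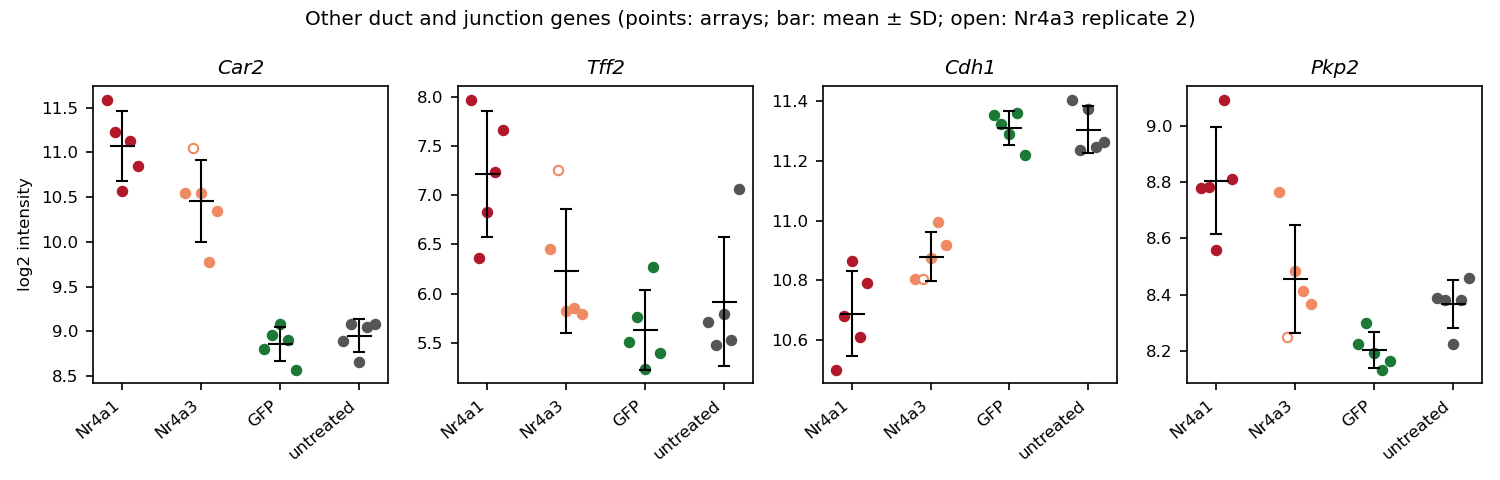
Log2 intensity (y axis, own scale for each gene) of Car2, Tff2, Cdh1 and Pkp2 on each array, by group on the x axis; points are arrays, bars are the mean ± SD of 5 arrays and the open point is the Nr4a3 array of replicate 2. Every Nr4a1 and Nr4a3 array lies above the GFP and untreated arrays for Car2 and below them for Cdh1.

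Between Nr4a1 and Nr4a3 none of the 10 listed genes passed the test, with a median difference of 0.12 over all arrays (all genes -0.0027) and 0.03 without replicate 2 of Nr4a3. The lowest adjusted p was 0.514, for Krt20 (-0.20 ± 0.12). Without replicate 2 of Nr4a3 the lowest was 0.201, for Krt7 (limma), and Krt20 had a difference of -0.09 ± 0.10. GFP arrays differed from untreated arrays by a median of -0.08 (all genes -0.017), with 3 genes above 0 and 7 below. Every adjusted p there was 0.9997, and the widest interval was that of Spp1, from -1.22 to 0.33. Without replicate 2 of Nr4a3 the lowest adjusted p there was 0.799, for Krt20 (limma).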

How the data were processed

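Islet RNA of 20 samples was labelled with biotin and measured on an Affymetrix rat expression array, 1 array per sample. The authors deposited an intensity per probe set, summarised with RMA per the submitters' processing notes (no version is stated). The file holds them on a linear scale, where a log scale had been assumed, and they were log2-transformed with no offset or further scaling. Of 31099 probe sets, 20832 have 1 gene symbol in the array's probe table, 436 several and 9831 none; 20764 were checked through the gene identifier and 0 changed. The 57 control probe sets were kept out of the tests and used to judge RNA quality. The brightest probe set by mean over arrays stands for each of 14217 genes (4525 had several).

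Group means of the 20 arrays were compared with limma 3.58.1 under R 4.3.3 (16 residual and 3.64 prior degrees of freedom, two-sided), with Benjamini-Hochberg adjustment over all genes of a comparison and a call at an adjusted p under 0.05. The test was tried on simulated data before use. Differences are the first group minus the second. Alternatives were array weights, a fit restricted to the compared arrays, a block for the replicate number, a robust variance with a trend, repeated quantile normalization, median centring, an offset of 16, a filter on dim genes, other uses of a gene's probe sets, and leaving out each array.

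The listed genes and the 12 other gene lists were chosen with earlier results of these data known. All listed genes are given; other lists give at most 4 named genes, those of lowest adjusted p in Nr4a1 against GFP, and some whose call changed without the Nr4a3 array of replicate 2 were named after their values were seen; genes alike were the 5 with the highest Pearson's r. Correlations were taken on deviations from group means. Promoters are RefSeq's of GRCr8. No scan dates or batches were used here, and the number of arrays limits the precision.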

Additional observations from a re-analysis of the deposited data

Results flagged for a closer look

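In each of the 4 groups of 5 arrays, the highest and lowest array of every listed gene was compared with its nearest neighbour by Dixon's criterion (a gap over 0.71 of the group's range). Of 40 such sets, 6 held an array standing apart, and 4 of these were the Nr4a3 array of replicate 2. Chance alone marks about 1 in 20 of independent sets, but these sets share arrays, so the count cannot be judged by that rate. The Nr4a3 array of replicate 2 was lowest for Krt7 (10.38), Krt8 (10.78), Krt18 (10.94) and Epcam (10.72), and its 3' to 5' difference for beta-actin was also the highest of all arrays. The part of RNA quality in these values was not tested. Krt19 was lowest in Nr4a1 replicate 3 (7.56), and Krt8 was highest in untreated replicate 2 (12.56).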

How the results depend on the processing

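Of 1188 differences of the 10 duct cell genes under the alternatives (30 for each comparison, fewer for genes dropped as dim), 1182 stayed on the same side of the threshold, 6 passed it newly and 0 reversed a call. The 6 concern Krt7 and Spp1 in Nr4a1 against GFP. There, the number of the 10 genes called was 0 in the fit reported above, 1 with the replicate number as a block (Spp1, adjusted p = 0.0458), 2 with array weights, 2 with only the 10 arrays compared, and 0 to 1 when each array was left out, the 1 being Krt7 without the Nr4a3 array of replicate 2. It was 0 under every alternative run in the other 3 comparisons. Over all alternatives Krt7 ran from -0.43 to -0.31 and Spp1 from 0.91 to 1.24. The filter on dim genes left 7 of the 10, without Cftr, Muc1 and Krt20. Over all genes in Nr4a1 against GFP, 876 rose and 363 fell, against 1997 and 1579 with array weights, 1810 and 1043 with only the 10 arrays compared, 1739 and 975 without the Nr4a3 array of replicate 2, 803 and 478 with repeated quantile normalization and 578 and 164 without Nr4a1 replicate 1. With the replicate number as a block 785 of 14217 genes rose and 303 fell. The cause of these differences in counts was not tested. Same-numbered arrays of different groups did not in general deviate together: r had a median of -0.03 over 30 pairs, 7 of them over 0.1. The highest was 0.50, against 0.58 among 120 pairs of different number, and 11 of 60 best matches had the same number. This cannot exclude animals or preparations shared under a number, which the labels do not give. The block is therefore an alternative and is given only here. With the block, Dsc2 in Nr4a1 against GFP had an adjusted p of 0.0574 at the same difference of -0.52. With 5 arrays a group, intervals as wide as those of Spp1 and Krt19 leave differences of that size undetected, and Cftr and Muc1 lie near the dim end of the scale.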
